A study of Ovis aries with 10 samples.

Results

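The 10 genes described here encode transcription factors listed for the arcuate and ventromedial nuclei of the hypothalamus: NR5A1, FEZF1, SOX14, TBX3, ISL1, OTP, PRDM12, NKX2-1, SIX3 and SIX6. Not all are specific to these nuclei, and NKX2-1, SIX3 and SIX6 are broad hypothalamic factors. All 10 were chosen by name from the 33775 genes of the count table. For 9 of them the table gave the symbol itself. OTP stood there as LOC101107527, and its gene identifier is named OTP in the RefSeq gene table. All 10 passed the filter on low counts, with 7 to 66 reads per library for PRDM12, the gene with the fewest, and 2309 to 15024 reads for TBX3.

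The libraries came from the mediobasal hypothalamus, the ventral block at the base of the brain that holds both nuclei, of adult Ile-de-France ewes in the luteal phase, when the corpus luteum secretes progesterone, and in the follicular phase, when it has regressed. Each phase had 5 libraries, and each library was a mix of RNA from 2 ewes, from 10 ewes per phase and 20 in all, so the spread given below is between mixes and not between single ewes. Per its title the study is about the effect of progesterone on gene expression in this block, and the samples allow 1 comparison, luteal against follicular. Neither the cycle day nor hormone levels of the ewes are given in the sources used here, so phase is known only as labelled. Totals ran from 28571863 to 42358557 reads in luteal libraries and from 20644992 to 43193449 reads in follicular libraries. Values are CPM, the reads of a gene relative to each library's TMM-scaled total. They are compared within a gene only, since transcript lengths of the counted annotation were not used here.

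Transcription factors of this kind divide the embryonic hypothalamus into territories and persist in the adult in the neurons that form there. In the mouse, NKX2-1 and SIX3 help to specify the ventral hypothalamus, NR5A1 is required for the ventromedial nucleus to form, and ISL1, PRDM12, TBX3 and NKX2-1 act in the proopiomelanocortin (POMC) neurons of the arcuate nucleus. In an RNA mix of whole tissue, fewer cells of a type and less RNA per cell cannot be told apart.

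None of the 10 genes passed the comparison of luteal with follicular libraries, and 9 of the 10 point estimates were above 0, FEZF1 being the exception. The quasi-likelihood test of edgeR called 0 of the 10 after Benjamini-Hochberg adjustment over 18276 genes, and 0 over the whole table (0%). Point estimates were above 0 for 51.5% of all genes tested. At an unadjusted p under 0.05 there were 2 of the 10 genes, TBX3 and SOX14, both higher in luteal libraries, where 4.27% of all genes tested were higher and 11.4% differed in either direction at that level. That count depended on single libraries: it was 0 without luteal 3, follicular 1, follicular 3 or follicular 4, and 5 without follicular 5. No gene of the 10 had luteal values that all lay on one side of the follicular ones, which 1.12% of all genes tested had. The median log2 fold change of the 10 was 0.40, against 0.01 over all genes tested. Since 7 of the 10 moved together from library to library, as given below, these estimates are not 10 separate observations.

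**Figure D1:**
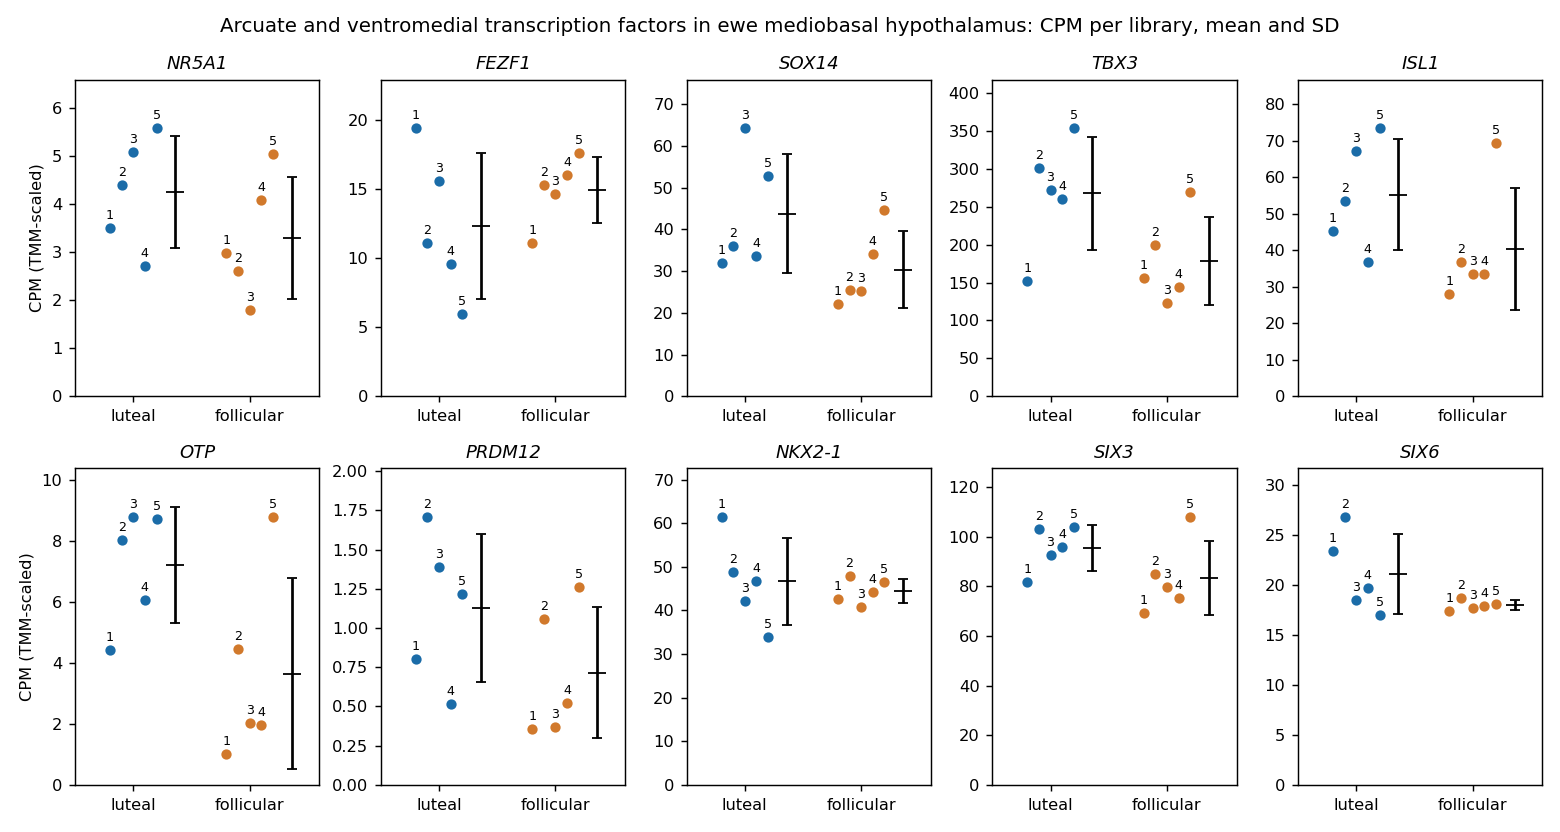
CPM (vertical axes, each from 0) of the 10 transcription factors in 5 luteal (left, blue) and 5 follicular (right, orange) libraries, with the replicate number above each point and bars for the mean and SD. In every panel the phases overlap. Follicular 5 stands at the top of its phase in 8 of the 10 panels, and SIX6 lies between 17.4 and 18.7 CPM in all follicular libraries.

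Of the genes tied to the ventromedial nucleus, NR5A1 and SOX14 averaged higher and FEZF1 lower in luteal libraries, without passing. NR5A1, the nuclear receptor steroidogenic factor 1, had 3.49, 4.40, 5.09, 2.71 and 5.58 CPM in luteal libraries 1 to 5, against 2.97, 2.60, 1.80, 4.08 and 5.03 CPM in follicular libraries 1 to 5. The phases overlapped over most of their range, with luteal 4 below 3 of the follicular libraries. The means were 4.25 ± 1.17 CPM in luteal and 3.30 ± 1.27 CPM in follicular libraries (SD, n = 5 per phase), with a log2 fold change of 0.35 (SE 0.29, edgeR adjusted p = 0.528).

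SOX14, a repressor of the SOX family found in the developing ventromedial nucleus of the mouse, had 32.0, 35.9, 64.3, 33.5 and 52.9 CPM in luteal libraries, against 22, 25.5, 25.3, 34.2 and 44.6 CPM in follicular libraries. All 5 luteal values lay above the follicular median, and 2 of them, luteal 3 and 5, above every follicular value. The means were 43.7 ± 14.3 CPM in luteal and 30.3 ± 9.18 CPM in follicular libraries (SD, n = 5 per phase), and the log2 fold change was 0.53 (SE 0.24, edgeR adjusted p = 0.426).

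FEZF1, a zinc finger protein of the early ventromedial nucleus in the mouse, had 19.4, 11.1, 15.6, 9.58 and 5.93 CPM in luteal libraries, against 11.1, 15.3, 14.6, 16.0 and 17.6 CPM in follicular libraries. Luteal 1 was the highest and luteal 5 the lowest of all 10 libraries, and the follicular values lay between them. The means were 12.3 ± 5.26 CPM in luteal and 14.9 ± 2.40 CPM in follicular libraries (SD, n = 5 per phase), with a log2 fold change of -0.28 (SE 0.27, edgeR adjusted p = 0.585). Without luteal 1 the estimate was -0.51 and without luteal 5 it was -0.10, neither passing.

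TBX3, a T-box repressor of the arcuate nucleus, had the smallest unadjusted p of the 10. Its levels were 152, 301, 272, 260 and 354 CPM in luteal libraries, against 156, 200, 123, 144 and 270 CPM in follicular libraries. Luteal 1 was among the low libraries and follicular 5 among the high ones, while 3 luteal values lay above every follicular value. TBX3 averaged 268 ± 74.0 CPM in luteal and 178 ± 58.3 CPM in follicular libraries (SD, n = 5 per phase), a ratio of means of 1.5. Its log2 fold change was 0.59 (SE 0.24, 95% interval 0.06 to 1.12, edgeR adjusted p = 0.426).

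ISL1, a LIM homeodomain protein that drives Pomc transcription in the mouse, had 45.3, 53.5, 67.2, 36.7 and 73.5 CPM in luteal libraries, against 28.0, 36.9, 33.4, 33.6 and 69.5 CPM in follicular libraries. Of the follicular libraries 4 lay close together and follicular 5 stood nearly as high as the highest luteal library. The means were 55.2 ± 15.2 CPM in luteal and 40.3 ± 16.6 CPM in follicular libraries (SD, n = 5 per phase), and the log2 fold change was 0.45 (SE 0.26, edgeR adjusted p = 0.441).

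OTP, the homeodomain protein orthopedia of neuroendocrine neurons, had the largest estimate and the widest spread. It had 4.44, 8.05, 8.80, 6.06 and 8.71 CPM in luteal libraries, against 1.02, 4.47, 2.02, 1.95 and 8.78 CPM in follicular libraries. Follicular 1, 3 and 4 were lower than every luteal library, follicular 2 matched the lowest luteal library and follicular 5 the highest. OTP averaged 7.21 ± 1.9 CPM in luteal and 3.65 ± 3.14 CPM in follicular libraries (SD, n = 5 per phase), with a log2 fold change of 0.95 (SE 0.47, 95% interval -0.08 to 1.99, edgeR adjusted p = 0.428). The highest library held 8.59 times the lowest.

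PRDM12, a zinc finger protein of POMC neurons and of pain-sensing neurons, was counted with few reads. It had 0.805, 1.71, 1.39, 0.513 and 1.22 CPM in luteal libraries, against 0.359, 1.06, 0.371, 0.524 and 1.26 CPM in follicular libraries. Luteal 4 lay with the low follicular libraries, and follicular 2 and 5 lay well inside the luteal range. The means were 1.13 ± 0.473 CPM in luteal and 0.716 ± 0.419 CPM in follicular libraries (SD, n = 5 per phase), and the log2 fold change was 0.59 (SE 0.42, edgeR adjusted p = 0.486). With 7 reads in follicular 1 and 7 in follicular 3, counting error limits what these libraries can show.

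The broad hypothalamic factors NKX2-1, SIX3 and SIX6 had the narrowest intervals. NKX2-1, a homeodomain protein of the ventral hypothalamus, had 61.5, 48.9, 42.2, 46.7 and 34.0 CPM in luteal libraries, against 42.7, 47.9, 40.9, 44.2 and 46.5 CPM in follicular libraries. Luteal libraries lay on both sides of the follicular range. The means were 46.7 ± 10.1 CPM in luteal and 44.4 ± 2.82 CPM in follicular libraries (SD, n = 5 per phase), and the log2 fold change was 0.07 (SE 0.14, 95% interval -0.23 to 0.37, edgeR adjusted p = 0.80), which was -0.05 without luteal 1.

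SIX3, a homeodomain protein of the anterior forebrain, had 81.6, 103, 92.6, 95.7 and 104 CPM in luteal libraries, against 69.3, 85.1, 79.5, 75.1 and 108 CPM in follicular libraries. All luteal values lay above the follicular median, and follicular 5 was the highest of all. SIX3 averaged 95.4 ± 9.08 CPM in luteal and 83.3 ± 14.8 CPM in follicular libraries (SD, n = 5 per phase). Its log2 fold change was 0.19 (SE 0.12, 95% interval -0.08 to 0.47, edgeR adjusted p = 0.458). A long noncoding RNA gene, LOC121819058, overlaps SIX3 in the gene table and held 942 to 2488 reads per library, up to 71% of the SIX3 count. Its own log2 fold change was 0.11. As the strand setting of the counting is not known, reads of this pair cannot be told apart with certainty.

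SIX6, a relative of SIX3 found in the suprachiasmatic nucleus and the pituitary, had 23.4, 26.8, 18.5, 19.7 and 17.0 CPM in luteal libraries, against 17.4, 18.7, 17.7, 17.9 and 18.1 CPM in follicular libraries. Luteal 1 and 2 were high, luteal 5 was the lowest of all, and the follicular libraries were nearly level. The means were 21.1 ± 3.98 CPM in luteal and 18.0 ± 0.509 CPM in follicular libraries (SD, n = 5 per phase), and the log2 fold change was 0.23 (SE 0.13, 95% interval -0.06 to 0.52, edgeR adjusted p = 0.441), which was 0.13 without luteal 2. The genes that overlap TBX3 and SIX6 in the gene table had at most 1.31% and 2.35% of the reads of TBX3 and SIX6.

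**Figure D2:**
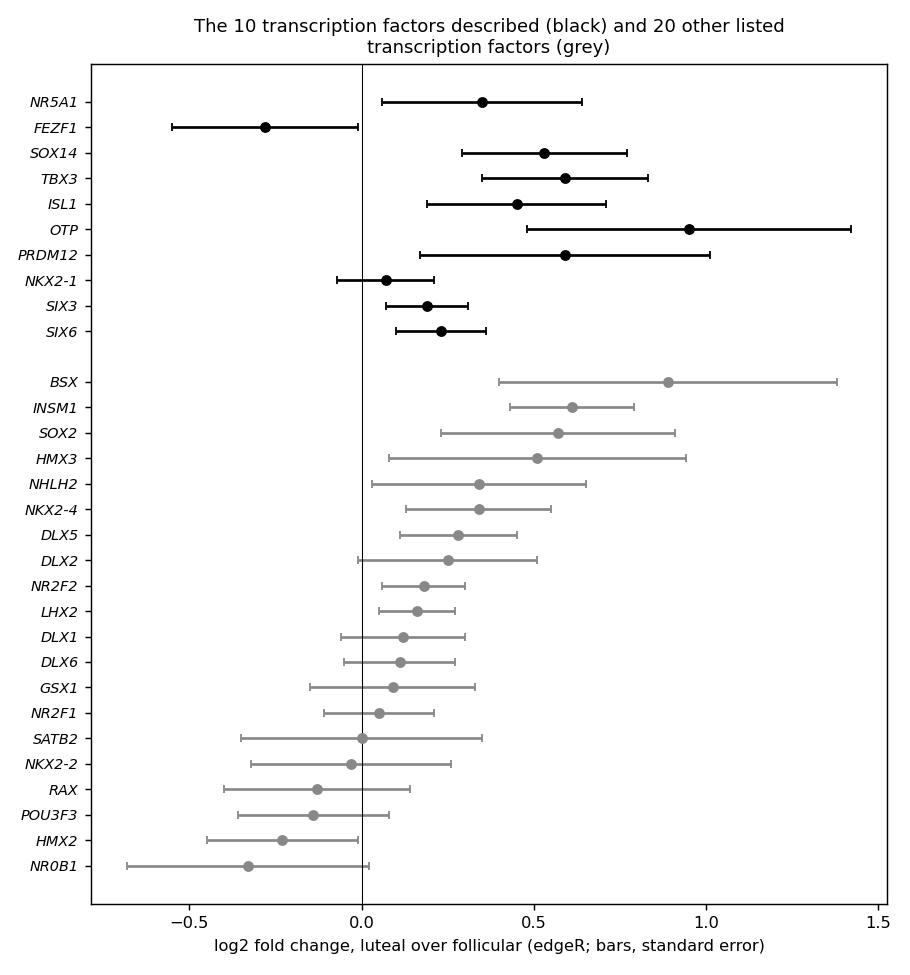
Log2 fold change of luteal over follicular by edgeR (points, horizontal axis) with its standard error (bars) for the 10 transcription factors (black) and 20 other transcription factors listed for the same nuclei (grey). OTP, at 0.95, and FEZF1, at -0.28, are the ends of the black points. None of them passed after adjustment.

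Of 20 other listed transcription factors of these nuclei, edgeR called 0. There was 1 at an unadjusted p under 0.05, higher in luteal libraries, where 4.27% of all genes tested were higher at that level. Of the list 15 point estimates were above 0, as were 51.5% of those of all genes tested. The median log2 fold change of the list was 0.14, against 0.01 over all genes tested. By level, its first members were LHX2 at 68.3 ± 8.59 CPM in luteal and 61.2 ± 4.58 CPM in follicular libraries, SOX2 at 59.3 CPM in luteal and 40.0 CPM in follicular libraries, RAX at 36.1 CPM in luteal and 39.7 CPM in follicular libraries, and NR2F1 at 36.7 CPM in luteal and 35.4 CPM in follicular libraries (SD, n = 5 per phase). The gene at an unadjusted p under 0.05 was INSM1, a zinc finger factor of neuroendocrine cells, which had a log2 fold change of 0.61 (edgeR adjusted p = 0.426). INSM1 was singled out after its values had been seen.

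The block was checked against markers of its neighbours. Every gene of the list of arcuate and ventromedial neuron products was detected, and all 17 passed the filter. Markers of other territories were mixed, some near 0 and others well counted. SIM1 of the paraventricular nucleus had at most 6 reads in any library, and LHX8 of the basal forebrain at most 4. Of the suprachiasmatic list, VIP had at most 10 reads, while RGS16 had up to 1593 and LHX1 up to 124. Of the mammillary list, BARHL1 had at most 15 reads, while EMX2 had up to 501 and FOXB1 up to 159. Of the lateral hypothalamic list, LHX9 had at most 19 reads, while HCRT and PMCH, the orexin and melanin-concentrating hormone precursors, had up to 2232 and 1069. The cortical and telencephalic genes EMX1, TBR1, NEUROD6 and NEUROD2 had at most 6, 4, 13 and 12 reads and did not pass the filter, while SATB1 passed it, with 23.2 CPM in luteal and 16.3 CPM in follicular libraries. The genes of this check were named after their values had been seen. The summed level of 7 paraventricular and supraoptic genes, led by AVP, the vasopressin precursor, and ARNT2, a factor of neuroendocrine cells, was 178 to 796 CPM in luteal and 408 to 2480 CPM in follicular libraries.

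The block also held transcripts of the pituitary. Of 14 genes of the anterior pituitary and pars tuberalis 13 passed the filter, and their summed level was 3220 to 7330 CPM in luteal and 3810 to 6010 CPM in follicular libraries. NR5A1, ISL1, SIX3 and SIX6 are also active in the pituitary of the mouse. Over the 10 libraries the log2 of the pituitary sum had Pearson's r of -0.38 with NR5A1 (Spearman's rho -0.54), -0.61 with ISL1 (rho -0.67), -0.36 with SIX3 (rho -0.49) and 0.00 with SIX6 (rho 0.19). The share of these genes' reads that is pituitary was not tested. Over all 18 lists of region and cell type genes edgeR called 0 genes, and the lists' median log2 fold changes ran from -0.56 for paraventricular and supraoptic genes to 0.58 for choroid plexus genes. Neuron markers summed to 1090 to 1500 CPM in luteal and 1300 to 1490 CPM in follicular libraries, and markers of tanycytes and ependyma to 1450 to 1870 CPM in luteal and 1340 to 1640 CPM in follicular libraries.

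The 10 genes fell into a group of 7 that followed the main axis of variation between libraries and a group of 3 that did not. That axis, the first principal component, held 51.0% of the variance, and it ran from follicular 3 and follicular 1, at -61.6 and -53.2, to luteal 5, at 58.2. Luteal libraries lay at -14.4 to 58.2 on it and follicular libraries at -61.6 to 48.1. OTP, ISL1, TBX3, PRDM12, SOX14, SIX3 and NR5A1 had r of 0.92, 0.95, 0.91, 0.88, 0.87, 0.87 and 0.81 with it over the 10 libraries, which differ in phase and read total as well. FEZF1, NKX2-1 and SIX6 had r of -0.26, -0.20 and 0.08. Of all genes tested 21.4% had r of at least 0.8 with this axis, 19.2% had r of -0.8 or less and 17.8% had an absolute r under 0.3. The median absolute r with this axis was 0.72.

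Position on the axis had r of -0.96 with the share of reads on 8 listed ribosomal protein genes and 0.63 with the read total of the library. Those 8 genes took 0.535% to 0.725% of the reads in luteal and 0.511% to 1.04% in follicular libraries. When the axis was entered as a covariate in edgeR, in a fit chosen once the values were known, the log2 fold changes of the 7 genes were 0.44 for OTP, 0.03 for ISL1, 0.20 for TBX3, 0.10 for PRDM12, 0.13 for SOX14, 0.03 for SIX3 and -0.03 for NR5A1. Those of the other 3 were -0.26 for FEZF1, 0.13 for NKX2-1 and 0.28 for SIX6. As the axis and phase overlap in part, this fit also takes out some of any difference between phases. Without follicular 1 and 3, which held the highest ribosomal protein shares, the estimates were 0.50 for OTP, 0.40 for TBX3, 0.34 for SOX14 and 0.25 for ISL1, none passing.

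**Figure D3:**
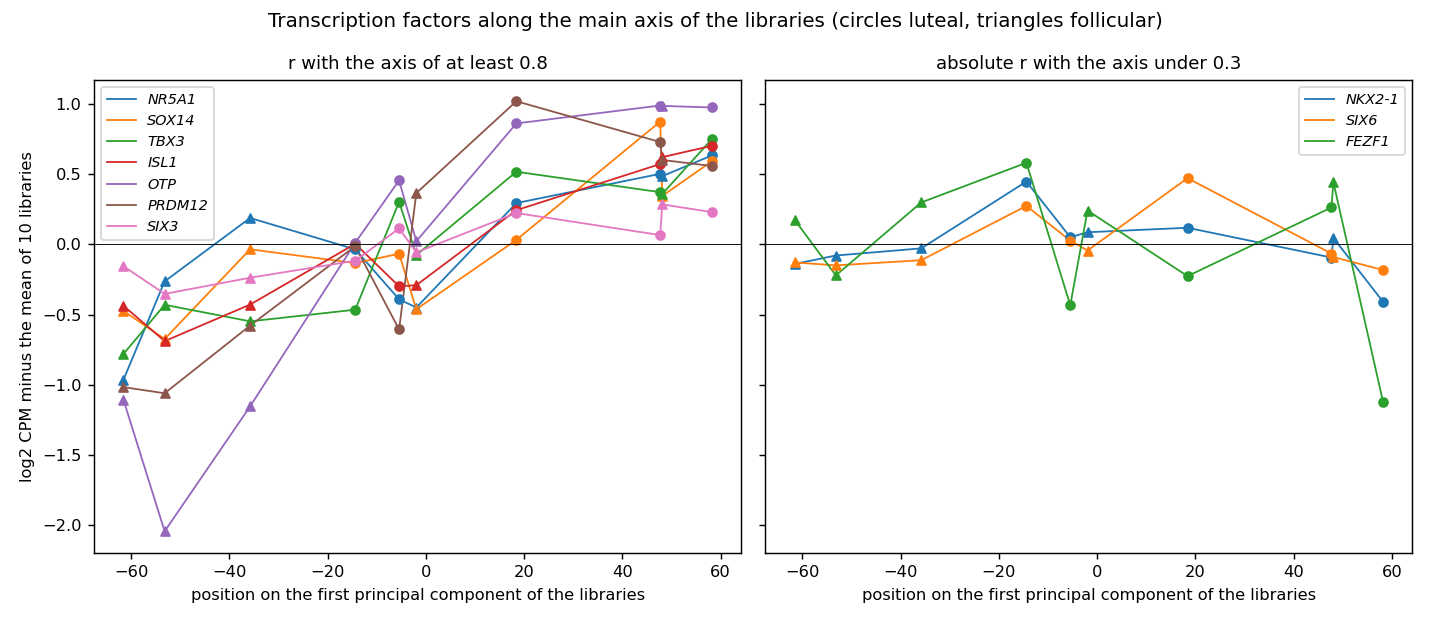
Log2 CPM of each transcription factor minus its mean over the 10 libraries (vertical axis) against the position of the library on the first principal component (horizontal axis, no unit), with circles for luteal and triangles for follicular libraries. The 7 genes on the left climb along the axis in both phases. The 3 on the right do not, and FEZF1 drops at luteal 5, the library at 58.2.

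Among the fits that left out a single library, the one without follicular 5 gave the highest estimate for each of the 7 genes. The phases of each of these genes still overlapped without follicular 5. It lay at 48.1 on the axis, apart from the other follicular libraries, which ran from -61.6 to -1.96. Without it the log2 fold change was 1.59 for OTP, 0.74 for ISL1, 0.78 for TBX3, 0.71 for SOX14, 0.31 for SIX3, 0.92 for PRDM12 and 0.56 for NR5A1. The edgeR adjusted p was then 0.0606 for OTP, ISL1 and TBX3, 0.0663 for SOX14 and 0.0724 for SIX3, and 0 genes of the whole table passed. Since follicular 5 was the follicular library most like the luteal ones in these genes, leaving it out raises the estimates by construction and lends them no support.

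Among the 21 pairs within the 7 genes, r of log2 CPM over 10 libraries ran from 0.57 to 0.94 with a median of 0.79, and from 0.45 to 0.92 when each phase was centred on its own mean. The pair with the highest r was OTP and SIX3, at 0.94 (rho 0.88, and 0.86 without the 2 libraries farthest out in OTP). NR5A1 and SOX14 had r of 0.82 (rho 0.89, and 0.81 without the 2 farthest). The 21 pairs that join one of the 7 to one of the other 3 ran from -0.55 to 0.41 with a median of -0.13. The 7 had been grouped by r of at least 0.8 with the main axis over these same libraries, and the 3 by an absolute r under 0.3. Both ranges therefore follow in part from that choice, and pairs of other genes grouped this way were not examined. NR5A1 and FEZF1, both tied to the ventromedial nucleus, had r of -0.19 (rho 0.01, and 0.41 without the 2 farthest), so the sign rests on those libraries.

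Of the remaining 3 genes, NKX2-1 and SIX6 had r of 0.69 (rho 0.88, and 0.66 without the 2 libraries farthest out in NKX2-1). FEZF1 and NKX2-1 had r of 0.67 (rho 0.35, and 0.44 without the 2 libraries farthest out in FEZF1). Within phases r was 0.78 (rho 0.47), and -0.09 without those 2 libraries, so the value within phases rests on them. These values describe the libraries and carry no test.

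**Figure D4:**
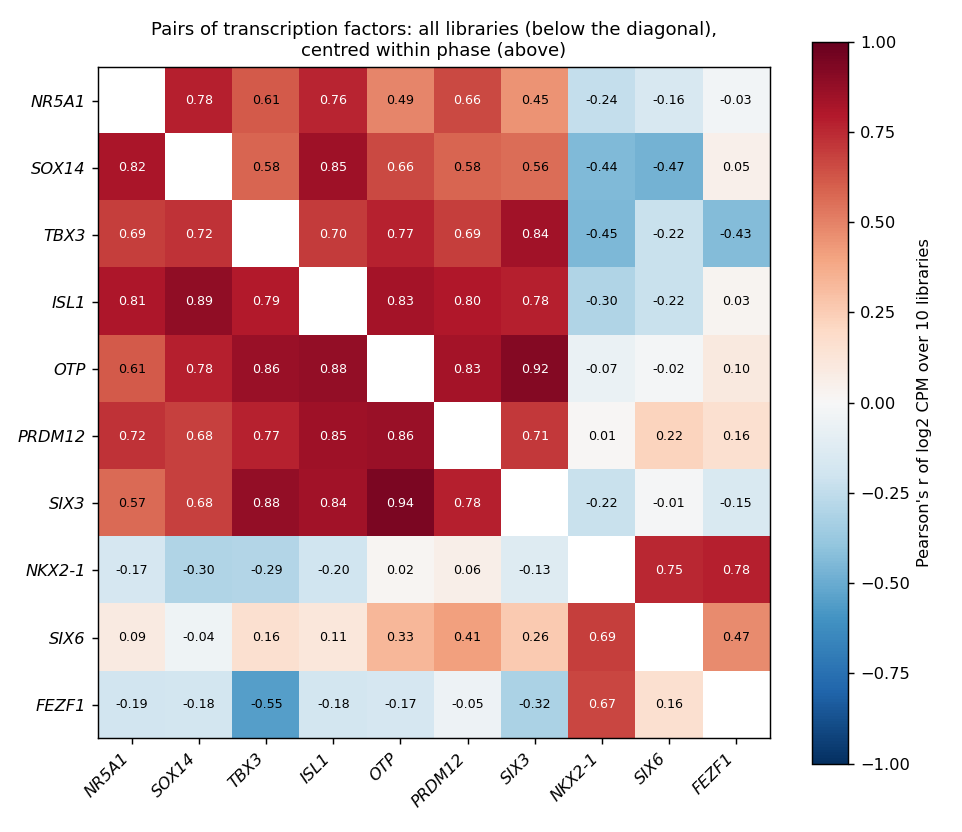
Pearson's r between the log2 CPM of each pair of transcription factors over 10 libraries, below the diagonal as measured and above it after each phase was centred on its own mean. The block of 7 genes from NR5A1 to SIX3 is red throughout, from 0.45 to 0.94, and its pairs with NKX2-1, SIX6 and FEZF1 lie between -0.55 and 0.41. The genes were grouped by their r with the first principal component over the same libraries, so the block follows in part from that choice.

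The spread between libraries differed widely among the 10. The SD of log2 CPM within phases was 0.88 for OTP, higher than in 97.5% of genes within 0.5 log2 units of its level. It was 0.71 for PRDM12, 0.50 for NR5A1 and FEZF1, 0.46 for ISL1, 0.45 for TBX3, 0.43 for SOX14, 0.23 for NKX2-1, 0.20 for SIX3 and 0.19 for SIX6, with a median of 0.31 over all genes tested. In follicular libraries the coefficient of variation of SIX6 was 2.83%, lower than in all but 0.329% of genes of like level, and that of NKX2-1 was 6.34%. In luteal libraries they were 18.9% and 21.6%. OTP went the other way, at 26.4% in luteal and 86.1% in follicular libraries. Whether the phases differ in spread was not tested.

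Neuron products of the cells these factors mark did not all move with them. POMC, the precursor of melanocortin peptides, averaged 903 CPM in luteal and 1060 CPM in follicular libraries, and over the 10 libraries it had r of -0.75 with ISL1 (rho -0.78), -0.72 with TBX3 (rho -0.73) and -0.56 with PRDM12 (rho -0.54). Without the 2 libraries farthest out in each factor these were -0.42, -0.65 and -0.40. POMC itself had r of -0.78 with the main axis, opposite in sign to these factors. The block also held pituitary transcripts, as given above, and the share of POMC reads that is pituitary was not tested. With NKX2-1, which did not follow the axis, POMC had r of 0.38 (rho 0.04), and -0.50 without the 2 libraries farthest out in NKX2-1, so the sign rests on those libraries. OTP and SST, the somatostatin precursor, which OTP neurons of the arcuate nucleus make in the mouse, had r of -0.91 (rho -0.95, and -0.88 without the 2 farthest). SST itself had r of -0.96 with the main axis, opposite in sign to OTP. AGRP, the agouti-related peptide of another group of OTP neurons, had r of -0.19 with OTP (rho 0.16).

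ADCYAP1, the precursor of the peptide PACAP and a product of ventromedial neurons, had 73.0, 42.2, 48.3, 43.7 and 35.4 CPM in luteal libraries, against 50.1, 69.9, 56.7, 71.5 and 68.4 CPM in follicular libraries. It followed FEZF1, with r of 0.89 (rho 0.87, 0.88 within phases and 0.80 without the 2 libraries farthest out in FEZF1), but not NR5A1, with r of -0.25 (rho -0.38). Its r with the main axis was -0.36. FEZF1 also had r of 0.74 with the log2 of the summed neuron markers (rho 0.64) and 0.68 with that of oligodendrocyte markers (rho 0.58). Whether its likeness to ADCYAP1 goes beyond these was not tested. Over the list of 17 arcuate and ventromedial neuron products edgeR called 0, the median log2 fold change was -0.23, and 3 members, PDYN, SST and SLC6A3, had an unadjusted p under 0.05, all lower in luteal libraries, where 7.12% of all genes tested were lower at that level. They were singled out for that p after their values had been seen.

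**Figure D5:**
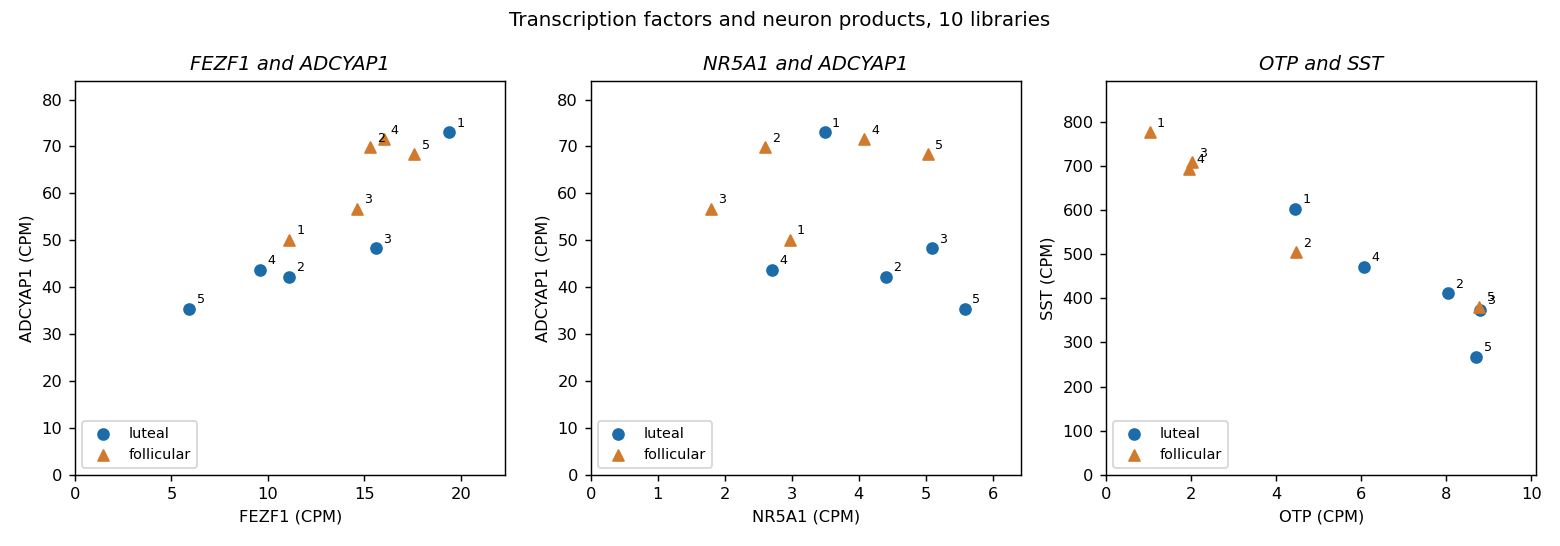
CPM of FEZF1 and ADCYAP1, NR5A1 and ADCYAP1, and OTP and SST in the same libraries (blue circles luteal, orange triangles follicular, replicate numbers beside the points, axes from 0). ADCYAP1 climbs with FEZF1, with r of 0.89, and not with NR5A1, with r of -0.25. SST is lower where OTP is higher, with r of -0.91.

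For each factor the genes with the most similar pattern within phases were sought among 16199 genes of at least 1 CPM. For ISL1 the first was ARHGAP32, with r of 0.995 (rho 1, and 0.995 without the 2 farthest libraries), for TBX3 XPO5, with r of 0.986 (rho 0.964, and 0.970), and for OTP ARHGAP6, with r of 0.981 (rho 0.988, and 0.985). For FEZF1 it was CSF1, with r of 0.932 (rho 0.818, and 0.710 without the 2 farthest), and for NKX2-1 TMEM38A, with r of 0.964 (rho 0.903, and 0.879). SIX6 was most like FOXF2, with r of 0.945 (rho 0.879, and 0.856), a forkhead factor of mesenchymal and mural cells. RARG came next, at 0.934 (rho 0.915), and then FOXD1, at 0.930 (rho 0.782). Among so many genes over 10 libraries high values are frequent, and they describe likeness only.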

How the data were processed

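Per the labels' protocols, TriReagent was used for extraction and a TruSeq stranded mRNA kit for the libraries. Equal amounts of RNA of 2 ewes were joined in each library, per the series' design text. The submitters' processing notes name, among other tools, featureCounts 2.0.0, TopHat2 2.1.1 and Bowtie2 2.3.5.1, with no settings. The sources used here do not give the genome build, the strand setting or the handling of shared reads. The values are raw counts, as the authors deposited them, in 1 table of 33775 genes and 10 libraries. Among the gene identifiers, 31873 (94.4%) were found in RefSeq's gene table (assembly ARS-UI_Ramb_v3.0), used only for names (471 symbols, OTP among them) and for which genes overlap.

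Counts were analysed in R 4.3.3 with edgeR 4.0.16: filterByExpr by phase (minimum count 10, minimum total 15), TMM scaling and the two-sided quasi-likelihood F-test fitted to the 10 libraries together with no term besides phase. This left 18276 genes, over which p-values were adjusted by Benjamini-Hochberg (threshold 0.05). Fold changes are luteal over follicular, with standard errors. Correlations are of log2 CPM (prior count 2). All 45 pairs of libraries differed by more than sampling noise (chi-square per degree of freedom from 12.8), so each library entered as its own sample.

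The alternatives tried were upper-quartile and RLE scaling, no filter, 1 CPM in 5 libraries, the replicate number as a block, leaving out libraries, limma-voom (limma 3.58.1), DESeq2 1.42.0 and robust dispersion, and, added later, the first principal component as a covariate. The 10 genes and the 18 lists of region and cell type genes were chosen with earlier results of these data known. The 10 genes are all named; from the lists, some were named by mean level and others after their values had been seen. The pairs of factor and product were picked from their known biology after the levels had been seen; there were 18. Median log2 fold changes over all genes were 0.011 with TMM, 0.005 with RLE and 0.029 with upper-quartile scaling. A few listed genes are not reported here.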

Additional observations from a re-analysis of the deposited data

Results flagged for a closer look

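The highest and lowest library of each phase were compared with the next one: the distance between them, as a share of the whole range of that phase, was set against Dixon's 95% limit for 5 samples (0.71). This was tested in 56 groups, 20 of them levels of the 10 transcription factors and the others summed levels of marker lists. The limit was passed in 1 group, where chance gives about 1 in 20, or 2.8. The ISL1 level of follicular 5 was 69.5 CPM, against 28.0 to 36.9 CPM in the other follicular libraries (ratio 0.786).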

How the results depend on the processing

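None of the 10 transcription factors passed under any of the 20 alternatives, and no alternative for which the overlap was counted separated the phases of any of them. Over the whole table edgeR called 0 genes, DESeq2 called 29, and leaving out single libraries gave 0 to 1. Of 200 fold changes of the 10 genes under the alternatives, 198 kept their direction. The exceptions were NKX2-1, at -0.05 without luteal 1, and NR5A1, at -0.03 with the first principal component in the model; the cause was not tested. Leaving out 1 library moved the log2 fold change of NKX2-1 between -0.05 and 0.17, of NR5A1 between 0.20 and 0.56, of OTP between 0.73 and 1.59, of TBX3 between 0.47 and 0.78, of SOX14 between 0.35 and 0.71, of ISL1 between 0.33 and 0.74, of PRDM12 between 0.40 and 0.92, of SIX3 between 0.14 and 0.31, of SIX6 between 0.13 and 0.30 and of FEZF1 between -0.51 and -0.10. Of the 18 alternatives fitted with edgeR, the unadjusted p of TBX3 was under 0.05 in 10 and that of SOX14 in 7. At that level there were 2 of the 10 genes as reported, 0 to 5 when 1 library was left out and 5 with the replicate block. Whether the replicate numbers of the labels pair the libraries was not settled. Same-numbered libraries had correlations of their deviations from -0.33 to 0.63, and 4 of 10 libraries correlated best with their own number. With the replicate number as a block edgeR called 0 genes, and the log2 fold change was 0.59 for TBX3 (edgeR adjusted p = 0.143) and 1.27 for OTP (0.143). At 7 to 66 reads per library depth limits PRDM12 most.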
